A study of Mus musculus with 6 samples.

Results

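Mitochondria make only a few of their own proteins, so most of the organelle is assembled from proteins imported through the outer membrane complex TOM and the inner membrane complexes TIM23 and TIM22. The same membranes are continually reshaped by fusion, fission and the folding of cristae. Damaged mitochondria are removed by mitophagy. The genes examined were the protein-coding genes whose symbols begin with *Tomm* or *Timm* and 15 named genes of fusion, fission, cristae and mitophagy (*Mfn1*, *Mfn2*, *Opa1*, *Oma1*, *Dnm1l*, *Fis1*, *Mff*, *Immt*, *Chchd2*, *Chchd3*, *Chchd10*, *Bnip3*, *Bnip3l*, *Fundc1* and *Pink1*). Of the 17145 genes listed, 38 met this rule, and 36 of these had at least 10 unique molecular identifiers (UMIs) over the 6 libraries and were tested among 7665 genes. *Fundc1*, a mitophagy receptor, had 9 UMIs and *Tomm40l*, a relative of the TOM channel gene, had 1, and neither was tested.

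The libraries came from cardiac areas of FS6KD mice, in which homozygosity for a gene trap lowers *Ndufs6*, a subunit of respiratory complex I. The labels give Ndufs6 knockdown as the genotype of both groups and female as the sex, and the strain is a mix of C57BL/6J and 129/Ola. The labels give neither the age of these mice nor which areas share a mouse. Areas with a high or a low level of Atf3 protein, a stress-induced transcription factor, were chosen by immunostaining of fresh-frozen sections. The study states that both kinds of cardiomyocytes lay inside clusters positive for Atf3. Atf3 low thus stands for a lower level of the protein and not for tissue without it. Ultraviolet light released the cDNA of these areas alone (photo-isolation chemistry), which gave 3 Atf3 high and 3 Atf3 low libraries. There was no area from a mouse without the gene trap, so both groups describe hearts with the knockdown. A lower level of an mRNA in an area cannot be told apart from fewer cells that make it. Nothing in the labels says that the libraries of a group came from separate hearts, although the study calls them biological replicates. If they did not, the p-values would measure only the spread between these libraries.

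Depth ran from 81117 to 210588 UMIs per library, so that 1 UMI was worth from 4.66 to 13.6 CPM, the count scaled to a common total by the TMM method. For a gene with 0 UMIs, counting error alone allowed 3 UMIs, which is 14 CPM in the deepest library and 40.9 CPM where a UMI weighed most. Markers of cardiomyocytes, the labelled cell type, were present in all libraries. Their summed level was 17800, 16700 and 32700 CPM in Atf3 high replicates 1, 2 and 3, against 35700, 39600 and 44100 CPM in Atf3 low. All 9 cardiomyocyte markers found had a negative log2 fold change, and 1 of them, *Myh6* (−1.81, edgeR adjusted p = 0.00512), was among the 7 genes called in the whole table. All 7 fibroblast markers had a positive one, with summed fibroblast levels of 1100 to 5190 CPM in Atf3 high and 531 to 2570 CPM in Atf3 low. The 5 mural cell markers tested also had positive values (summed level 266 to 666 against 163 to 532 CPM). The summed levels of fibroblast and mural markers overlapped between the groups, as did those of endothelial markers (990 to 1350 against 817 to 1390 CPM), macrophage markers (158 to 325 against 222 to 334 CPM) and erythrocyte markers (32.6 to 157 against 0 to 128 CPM, with 2 of 5 names matched). The part of cell composition in the values below was not tested. In Atf3 high replicate 2, 16 UMIs fell on *Ddx3y* and *Eif2s3y*, both Y-linked, and 0 on *Xist*. This goes against its label, and the counts of separated genes are also given without it. Every other library had 3 to 26 UMIs of *Xist* and 0 or 1 of the Y-linked genes. Among them was Atf3 low replicate 2, with 13 and 0, so the areas numbered 2 differed in these sex-linked genes. The targeted gene, *Ndufs6*, was counted 2, 0 and 3 times in Atf3 high, against 0 in each Atf3 low library. *Atf3* mRNA had 50, 7 and 25 UMIs in Atf3 high, against 35, 0 and 8 in Atf3 low, so the mRNA overlapped between groups chosen by the protein (log2 fold change 0.40, standard error 0.65, edgeR adjusted p = 0.996).

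The mitofusins *Mfn1* and *Mfn2*, large GTPases that join the outer membranes of neighboring mitochondria, divided their UMIs differently in the 2 groups (described with the pairs), and the 200 bases before their RefSeq starts are shown for that reason (GRCm38.p6; the coding strand of each gene, 5′ to 3′). Capitals mark TGACG, the core of the ATF/CRE site to which Atf3 and its relatives bind, and CCGGAAG, the core of the site of ETS factors, each on either strand. The first lies within the full ATF/CRE site.
*Mfn1*, chr3:32529282-32529481, plus strand: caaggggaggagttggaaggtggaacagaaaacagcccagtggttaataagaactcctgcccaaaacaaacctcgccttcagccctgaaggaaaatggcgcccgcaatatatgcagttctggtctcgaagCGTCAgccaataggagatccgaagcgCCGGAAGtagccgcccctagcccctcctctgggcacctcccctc
*Mfn2*, chr4:147904699-147904898, minus strand: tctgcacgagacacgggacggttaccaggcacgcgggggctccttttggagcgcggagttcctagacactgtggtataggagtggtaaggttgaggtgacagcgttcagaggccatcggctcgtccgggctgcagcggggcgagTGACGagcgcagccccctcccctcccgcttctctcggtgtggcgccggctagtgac
The short ATF/CRE core lay 70 bases before the start of *Mfn1*, on the opposite strand, and 56 bases before that of *Mfn2*. In *Mfn2* another core began 4 bases before the start and ran past it, so it is not in capitals. Further cores lay 236 and 205 bases before the *Mfn2* start, beyond the stretch shown. The ETS core lay 44 bases before the start of *Mfn1* and was absent from the stretch of *Mfn2*. Of 38 members, 33 had promoter windows of 300 bases in the RefSeq table (40 windows in all). The full site TGACGTCA was found in 0 of these 40, and in 1.79% of 32851 windows of all genes. The short ATF/CRE core was in 17 of the 40 (42.5%, against 20.8% of all windows), and the ETS core in 16 (40.0%, against 8.86%). Counted by gene, each of these cores was found in 14 of the 33 members. The part of base composition in these shares was not tested. The core site of NRF-1 was in 1 window (*Opa1*; 0.971% of all windows), as was TCAAGGTCA, a site of the ERR receptors (*Timm8b*; 0.423%). Several windows belong to alternative starts of the same gene and overlap, and a match in letters says nothing of binding in these hearts.

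None of the 36 genes differed between Atf3 high and Atf3 low at an adjusted p of 0.05 (edgeR quasi-likelihood test, Benjamini-Hochberg adjustment over 7665 genes), where 0.0913% of all genes tested did. At an unadjusted p under 0.05, 0 were higher in Atf3 high, against 3.55% of all genes, and 0 were lower, against 2.24%. The smallest p was 0.109 (*Mfn1*, adjusted p = 0.964). Log2 fold changes (Atf3 high over Atf3 low) were positive for 16 genes and negative for 20, and ran from −1.53 to 1.57 with a median of −0.079, beside a median of 0.11 over all genes tested. With scaling by library size alone, both medians moved up (0.14 and 0.31) and the split became 20 positive and 16 negative. The direction of the median thus depended on the scaling, and it also turned without Atf3 low replicate 1 (median 0.10). The distance of the median from that of all genes was −0.19 and −0.17 with these scalings. Over all alternatives it ran from −0.41 (without Atf3 low replicate 2) to −0.11 (without Atf3 low replicate 1). The summed level of the 36 genes tested was 4010 ± 723 CPM in Atf3 high and 4390 ± 626 CPM in Atf3 low (SD, n = 3 libraries each). Standard errors ran from 0.37 to 1.49 on the log2 scale, and replicates varied by 53.6% (the shared biological coefficient of variation). For 18 of the 36 genes the 95% interval held both a 2-fold increase and a 2-fold decrease.

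**Figure D1:**
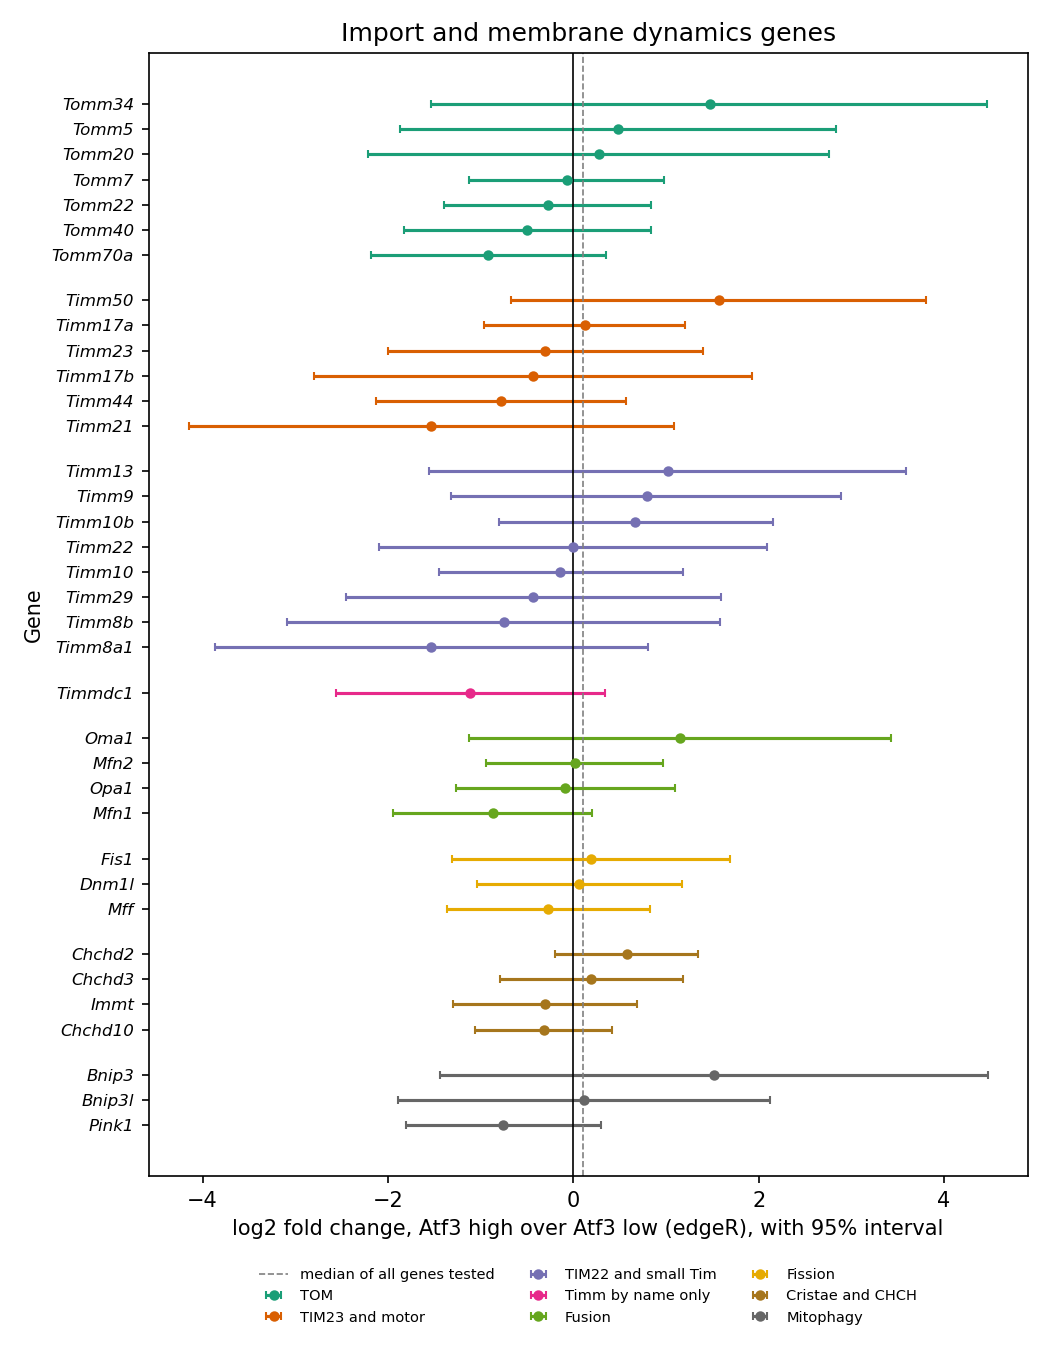
Log2 fold change of each of the 36 genes tested (x axis, Atf3 high over Atf3 low) with its 95% interval, grouped and colored by function; the solid line marks 0 and the dashed line the median of all genes tested, 0.11. Every interval crosses 0, and the narrowest belong to *Chchd10* and *Chchd2*.

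In 2 genes every Atf3 high library lay above every Atf3 low library (*Chchd2* and *Timm50*; 5.56% of those tested, against 7.07% of all genes), and in 3 every one lay below (*Tomm70a*, *Tomm40* and *Timm8a1*; 8.33%, against 3.89% of all genes). *Chchd2*, *Timm50*, *Tomm40* and *Timm8a1* kept this separation with median-of-ratios size factors and with library size alone. *Tomm70a* lost it with library size alone, and *Chchd10* joined the lower genes with median-of-ratios size factors. Without Atf3 high replicate 2, 5 genes were separated upward (*Dnm1l*, *Oma1* and *Bnip3* in addition) and 4 downward (*Timmdc1* in addition). These are 13.9% and 11.1% of the 36 genes, against 13.5% and 5.61% of all genes tested with the same 5 libraries.

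The cristae genes had standard errors of 0.37 to 0.50, at the low end of the range. *Immt* (Mic60) and *Chchd3* (Mic19) encode subunits of MICOS, the complex that holds cristae junctions together, and *Chchd2* and *Chchd10* encode related small proteins of the intermembrane space that bind each other and are mutated in neurodegenerative and muscle disease. *Chchd2* had 732, 809 and 745 CPM in Atf3 high (144, 67 and 160 UMIs), against 613, 409 and 504 CPM in Atf3 low (91, 49 and 37 UMIs). The groups did not overlap, with means of 762 ± 41.0 and 509 ± 102 CPM. The log2 fold change of 0.58 (standard error 0.38, 95% interval −0.20 to 1.35) did not pass the test (edgeR adjusted p = 0.964). Its partner gene *Chchd10* leaned the other way, at 640, 688 and 801 CPM in Atf3 high, against 930, 793 and 940 CPM in Atf3 low. A single pair of libraries overlapped, Atf3 high replicate 3 and Atf3 low replicate 2, and the log2 fold change was −0.32 (standard error 0.37, 95% interval −1.06 to 0.42, edgeR adjusted p = 0.996). *Immt* (133 to 208 CPM against 108 to 327 CPM) and *Chchd3* (168 to 314 against 108 to 245 CPM) overlapped widely, with log2 fold changes of −0.30 and 0.19. The summed level of the 4 genes was 1880 ± 114 CPM in Atf3 high and 1820 ± 349 CPM in Atf3 low.

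**Figure D2:**
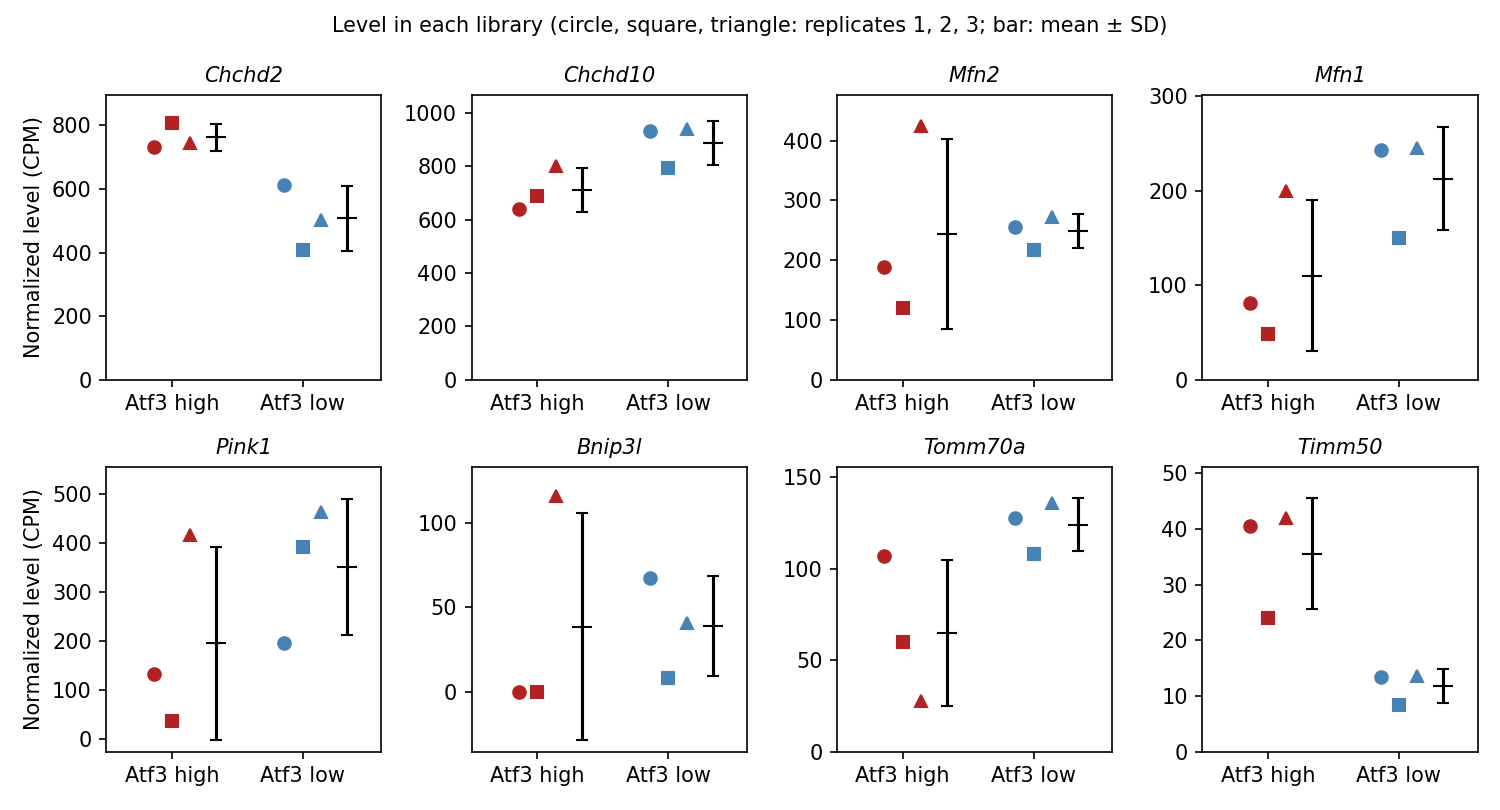
Normalized level (y axis, CPM) of 8 genes in each library; red, Atf3 high; blue, Atf3 low; circles, squares and triangles are replicates 1, 2 and 3, and the black bar is the mean with 1 SD. *Chchd2* and *Timm50* are separated upward and *Tomm70a* downward in Atf3 high, and in *Mfn2*, *Mfn1*, *Pink1* and *Bnip3l* the red triangle (Atf3 high replicate 3) lies far above the other red points.

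Among the fusion genes, *Mfn1* was at 81.3, 48.3 and 200 CPM in Atf3 high and at 243, 150 and 245 CPM in Atf3 low. Atf3 high replicates 1 and 2 lay below all Atf3 low libraries and replicate 3 lay among them, which left a log2 fold change of −0.87 (standard error 0.53, 95% interval −1.95 to 0.20, edgeR adjusted p = 0.964). *Mfn2*, which also tethers mitochondria to the endoplasmic reticulum, was at 188, 121 and 424 CPM in Atf3 high, against 256, 217 and 272 CPM in Atf3 low. The Atf3 high values lay on both sides of all Atf3 low values, and the log2 fold change was 0.016 (standard error 0.47). *Opa1*, the GTPase that fuses inner membranes, overlapped between the groups (60.3 to 116 against 75.1 to 142 CPM, log2 fold change −0.085). *Oma1*, the protease that cleaves Opa1 when the membrane potential is lost, had 6, 1 and 10 UMIs in Atf3 high, against 3, 2 and 0 in Atf3 low, which gave a log2 fold change of 1.15 with a standard error of 1.13. Summed over the 4 genes, the fusion class had 480 ± 279 CPM in Atf3 high and 577 ± 105 CPM in Atf3 low.

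The fission genes gave log2 fold changes near 0. *Dnm1l* (Drp1), the GTPase that constricts mitochondria, was at 178, 36.2 and 200 CPM in Atf3 high, against 148, 142 and 123 CPM in Atf3 low. Its Atf3 high replicate 2 stood well below the other 5 libraries, on 3 UMIs, and the log2 fold change was 0.066 (standard error 0.55). *Mff*, an outer membrane receptor for Drp1, was at 112, 84.5 and 149 CPM against 195, 125 and 95.3 CPM, a log2 fold change of −0.27 with overlapping groups. *Fis1*, an outer membrane protein linked to fission and to the turnover of fission machinery, was at 55.9, 36.2 and 97.8 CPM against 20.2, 66.7 and 95.3 CPM, and its groups overlapped throughout (log2 fold change 0.19, standard error 0.74).

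The 3 mitophagy genes tested summed to 147, 36.2 and 564 CPM in Atf3 high, against 270, 409 and 504 CPM in Atf3 low. *Pink1* encodes the kinase that accumulates on depolarized mitochondria and marks them for removal, and its level was 132, 36.2 and 415 CPM in Atf3 high, against 195, 392 and 463 CPM in Atf3 low. Atf3 high replicates 1 and 2 lay below all Atf3 low libraries, and replicate 3 was above the middle of that group. The log2 fold change was −0.76 (standard error 0.52, 95% interval −1.81 to 0.30, edgeR adjusted p = 0.965). *Bnip3l* (Nix), an outer membrane mitophagy receptor, had 0, 0 and 25 UMIs in Atf3 high, against 10, 1 and 3 in Atf3 low, or 0, 0 and 116 CPM against 67.4, 8.34 and 40.9 CPM. *Bnip3l* was thus counted in a single Atf3 high library and in all Atf3 low libraries. In the libraries with 0 UMIs, counting error alone allowed levels of up to 15.2 and 36.2 CPM (Atf3 high replicates 1 and 2). These bounds lie under the levels of Atf3 low replicates 1 and 3 and above that of replicate 2, and they do not settle its absence. Its relative *Bnip3* had 3, 0 and 7 UMIs in Atf3 high, against 1, 1 and 0 in Atf3 low (log2 fold change 1.52, standard error 1.47), and a lincRNA annotated as AC160336.1, which matches *Bnip3* on the opposite strand, had 11 UMIs of its own.

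Atf3 high replicate 3 thus stood apart from the other Atf3 high libraries in several of these genes. Over the mean of Atf3 high replicates 1 and 2, its level was 4.93 times as high for *Pink1*, 3.09 for *Mfn1*, 2.74 for *Mfn2*, 4.29 for *Bnip3* and 5.96 for *Timm22*. The median ratio over 35 genes was 1.21, against 0.988 over all genes tested. It exceeded 2 for 9 of the 35 (25.7%, against 20.3% of all genes) and was under 0.5 for 6 (17.1%, against 22.9%), namely *Tomm20* (0.177), *Timm13* (0.226), *Timmdc1* (0.262), *Tomm70a* (0.334), *Tomm34* (0.438) and *Timm17b* (0.497). Ratios over 2 or under 0.5 in this library were thus common in the whole table. No share of all genes was computed at the larger ratios named above. In the same library the summed cardiomyocyte markers were 1.90 times those of the other 2 Atf3 high libraries, and the fibroblast markers were lowest of the group. The part of these in the mitochondrial genes was not tested. Without this library, the log2 fold change of *Pink1* was −1.90 (edgeR adjusted p = 0.140) and that of *Mfn1* was −1.63 (adjusted p = 0.423), and neither was called.

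**Figure D3:**
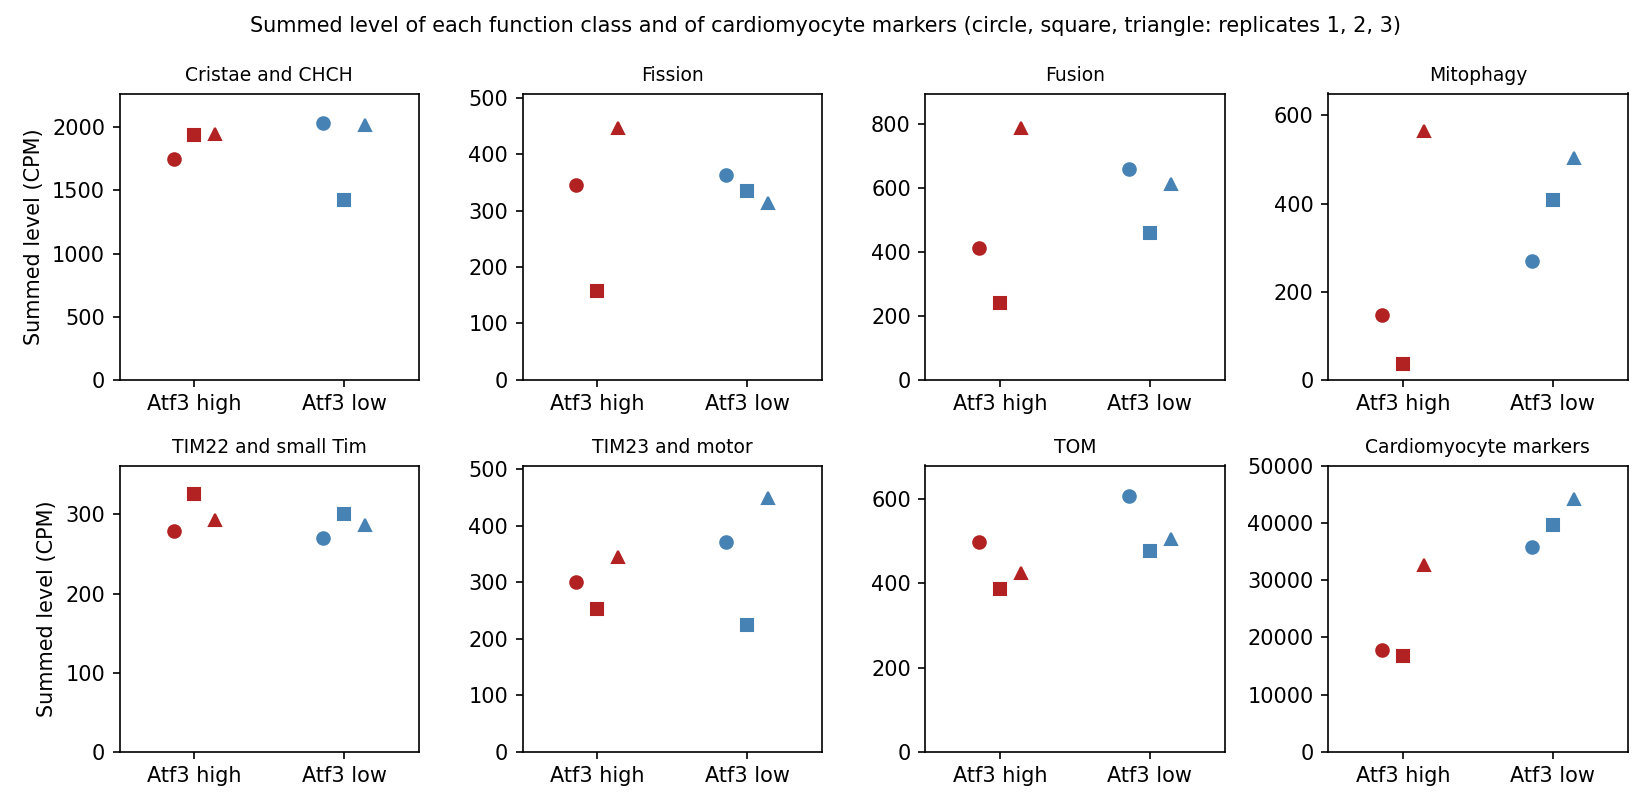
Summed level (y axis, CPM, from 0) of the genes tested in 7 function classes and of 9 cardiomyocyte markers in each library. Red is Atf3 high and blue is Atf3 low, and circles, squares and triangles are replicates 1, 2 and 3. In the fusion, fission and mitophagy classes Atf3 high replicate 3 is the highest of the 6 libraries and replicate 2 the lowest, while TIM22 with the small Tims stays between 270 and 326 CPM.

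In the TOM complex, the receptors and the channel had lower values in Atf3 high where they were separated at all. *Tomm70a* (Tom70), the receptor that takes up carrier proteins with cytosolic chaperones, was at 107, 60.3 and 27.9 CPM in Atf3 high, against 128, 108 and 136 CPM in Atf3 low. The highest Atf3 high library, at 107 CPM, lay just under the lowest Atf3 low library, at 108 CPM, and the log2 fold change was −0.92 (standard error 0.63, 95% interval −2.18 to 0.35, edgeR adjusted p = 0.965). *Tomm40*, the channel itself, was at 66.1, 48.3 and 65.2 CPM against 101, 75.1 and 81.7 CPM. The groups did not overlap, with a log2 fold change of −0.50 (standard error 0.66, edgeR adjusted p = 0.996). *Tomm22*, the central receptor (81.3, 109 and 140 against 108, 133 and 163 CPM), and *Tomm7*, a small subunit of the complex (147, 133 and 149 against 216, 108 and 123 CPM), had overlapping groups and log2 fold changes of −0.27 and −0.072. *Tomm34*, a cytosolic co-chaperone of import, had 6, 1 and 2 UMIs in Atf3 high, against 0, 2 and 0 in Atf3 low, with a value of 1.47 and a standard error of 1.49. *Tomm5* and *Tomm20*, a small subunit and the presequence receptor, had 0 to 8 UMIs per library and values of 0.48 and 0.28. The 7 TOM genes tested summed to 436 ± 56.9 CPM in Atf3 high and 529 ± 68.9 CPM in Atf3 low, and the groups overlapped (386 to 498 against 476 to 606 CPM).

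TIM23 carries presequence proteins across the inner membrane with the help of a motor. *Timm50*, its receptor, was at 40.6, 24.1 and 41.9 CPM in Atf3 high, against 13.5, 8.34 and 13.6 CPM in Atf3 low, on 8, 2 and 9 UMIs against 2, 1 and 1. All Atf3 high libraries lay above all Atf3 low ones, and with so few UMIs the log2 fold change of 1.57 had a standard error of 1.11 (95% interval −0.67 to 3.81, edgeR adjusted p = 0.966). *Timm44*, which anchors the motor chaperone to the channel, was at 45.7, 36.2 and 88.5 CPM against 74.1, 66.7 and 177 CPM. Its groups overlapped, with a log2 fold change of −0.78 (standard error 0.67). *Timm17a*, a channel subunit, was at 127, 169 and 135 CPM against 155, 75.1 and 163 CPM (log2 fold change 0.13). *Timm21*, which links TIM23 to TOM, had 1, 1 and 2 UMIs in Atf3 high, against 3, 1 and 4 in Atf3 low (log2 fold change −1.53, standard error 1.30). The channel subunit genes *Timm23* and *Timm17b* had 0 to 13 and 1 to 6 UMIs per library and values of −0.30 and −0.43. *Timm23* is uncertain, because *Gm10273*, a near-identical copy listed with 11 UMIs, could have taken part of its reads. Other members had near-identical copies too, among them *Timm8a1* (*Gm9797*, identical over 612 bases, listed with 1 UMI). Copies of *Bnip3l* and *Tomm20* exist in the annotation but were not among the genes listed. The class summed to 299 ± 45.6 CPM in Atf3 high and 348 ± 114 CPM in Atf3 low.

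TIM22 inserts carrier proteins into the inner membrane after the small Tims have chaperoned them across the intermembrane space, and this class was nearly level, at 300 ± 23.8 CPM in Atf3 high and 285 ± 15.4 CPM in Atf3 low. *Timm8a1*, a small Tim that pairs with Timm13, was at 10.2, 12.1 and 9.32 CPM in Atf3 high, against 40.4, 25 and 27.2 CPM in Atf3 low. The groups did not overlap, but no library held more than 6 of its UMIs, and the log2 fold change of −1.53 had a standard error of 1.16 (edgeR adjusted p = 0.969). *Timm10b*, a small Tim attached to TIM22, was at 102, 84.5 and 51.2 CPM against 74.1, 50.1 and 13.6 CPM (log2 fold change 0.67, standard error 0.73), and its exons overlap those of *Arfip2* on the other strand by 172 bases. *Timm10*, which forms a chaperone hexamer with Timm9, was at 76.2, 60.3 and 79.2 CPM against 74.1, 108 and 54.5 CPM (log2 fold change −0.14). The remaining 5 genes, *Timm9*, *Timm13*, *Timm8b*, *Timm29* and *Timm22*, had 0 to 11 UMIs per library and values from −0.75 to 1.02. *Timmdc1*, which bears the Timm name and is an assembly factor of complex I, was at 45.7, 96.5 and 18.6 CPM against 202, 50.1 and 54.5 CPM. Its log2 fold change of −1.11 (standard error 0.72) rested on Atf3 low replicate 1 and was −0.073 without that library.

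Within a library, the share of UMIs that falls to either gene of a pair does not depend on normalization, and 12 pairs of genes whose products work together or in each other's place were compared this way. The pairs were written down after the levels had been seen, so their shares are a description with no test, and no share over other gene pairs was computed to read them against. Since UMIs mark transcript ends, a share is compared between groups only and does not rank the genes. *Mfn2* held 69.8%, 71.4% and 67.9% of the mitofusin UMIs in Atf3 high, against 51.4%, 59.1% and 52.6% in Atf3 low. The groups did not overlap (69.7% ± 1.76 against 54.4% ± 4.15, SD, n = 3 libraries each), and the difference of 15.4 percentage points stayed between 13.9 and 17.7 with each library left out, Atf3 high replicates 2 and 3 included. The 3 shares in Atf3 high lay close together, while levels there ranged from 48.3 to 200 CPM for *Mfn1* and from 121 to 424 CPM for *Mfn2*. In Atf3 high replicate 2 the share rested on 10 UMIs of *Mfn2* and 4 of *Mfn1* (exact binomial 95% interval 41.9% to 91.6%). Counts this low cannot show that the division stayed alike across those levels. *Chchd2* held 53.3%, 54.0% and 48.2% of the UMIs it shares with *Chchd10* in Atf3 high, against 39.7%, 34% and 34.9% in Atf3 low. These groups were also apart, by 15.6 points (51.9% ± 3.19 against 36.2% ± 3.07; 14.5 to 17.5 with each library left out, and 15.4 with the 3 UMIs of *Zbed5*, a near-identical copy of *Chchd2*, added). *Timm50* held 47.1%, 40.0% and 32.1% of the UMIs it shares with *Timm44* in Atf3 high, against 15.4%, 11.1% and 7.14% in Atf3 low, a difference of 28.5 points on 86 UMIs in all. For the last pair the exact binomial 95% intervals of single libraries overlap (15.9% to 52.4% in Atf3 high replicate 3 and 1.92% to 45.4% in Atf3 low replicate 1), and for the mitofusins they do too (59.3% to 75.7% and 43.2% to 73.7% in the nearest libraries). The *Chchd2* intervals of the nearest libraries, 42.7% to 53.7% and 33.4% to 46.4%, overlap as well.

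In 8 of the other 9 pairs the groups overlapped. In the TOM complex, the receptor gene *Tomm22* held 64.2% ± 7.83 of the UMIs it shares with the channel gene *Tomm40* in Atf3 high and 60.8% ± 8.03 in Atf3 low, with single libraries from 51.6% to 69.2%. *Immt* held 44.3% ± 13.2 and 52.4% ± 4.12 of the MICOS pair, and *Dnm1l* 49.6% ± 17.1 and 50.8% ± 6.85 of the pair with its receptor *Mff*. *Timm17a* held 90.1% ± 5.84 and 87.2% ± 6.93 of the UMIs of the alternative Tim17 subunits, *Tomm70a* 80.5% ± 7.09 and 89.8% ± 9.10 of those it shares with *Tomm20*, and *Timm23* 20.5% ± 17.8 and 29.4% ± 14.8 of those with *Timm17a*. The pairs of small Tims, *Timm9* with *Timm10* and *Timm8a1* with *Timm13*, had 93 and 30 UMIs and differed by 15.2 and −32.1 points with overlapping groups. *Bnip3l* and *Bnip3* together had 0 UMIs in Atf3 high replicate 2, which left no share to compare.

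**Figure D4:**
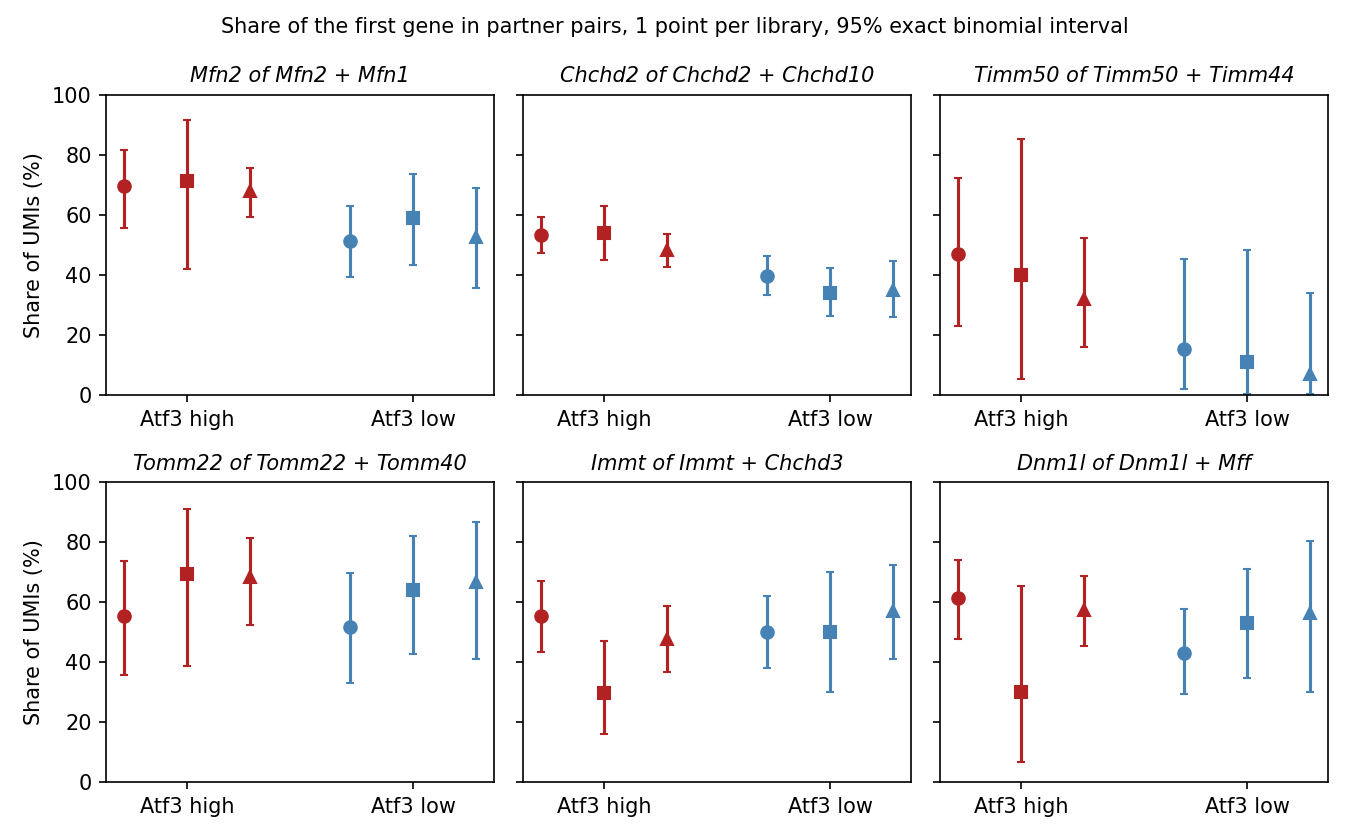
Share of the first gene in the UMIs of a pair (y axis, percent) in each library, with its exact binomial 95% interval, which covers counting error only; red, Atf3 high; blue, Atf3 low; circles, squares and triangles are replicates 1, 2 and 3. The upper row holds the 3 pairs in which the groups do not overlap, and the lower row the 3 overlapping pairs with most UMIs.

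A wider list of 65 names of import, dynamics and mitophagy was examined beside these genes, of which 59 were found and 51 tested. Of these, 24 had positive and 27 negative log2 fold changes, with a median of −0.062, and 0 passed an unadjusted p of 0.05 in either direction. The medians were −0.041 for 22 import genes, −0.010 for 16 genes of dynamics and cristae and −0.072 for 13 mitophagy genes. The smallest p belonged to *Hspa9*, the chaperone (mortalin) that drives the TIM23 motor, at 813, 1220 and 834 CPM in Atf3 high, against 647, 484 and 586 CPM in Atf3 low. Its groups did not overlap, and the log2 fold change of 0.73 (standard error 0.38) did not pass the test (edgeR adjusted p = 0.908). *Yme1l1*, the inner membrane protease that processes Opa1 and turns over import subunits, was at 61.0, 60.3 and 37.3 CPM against 135, 75.1 and 150 CPM, also without overlap (−1.18, standard error 0.65, edgeR adjusted p = 0.927). The next were *Gabarapl2*, which builds autophagosome membranes (log2 fold change 1.1), *Sqstm1*, the autophagy adaptor p62 (0.68), and *Bcl2l13*, a mitophagy receptor (−1.33), all with overlapping groups and an edgeR adjusted p of 0.964. Besides *Hspa9* and *Yme1l1*, only *Dnajc19* and *Immp1l* of this list had groups without overlap, both lower in Atf3 high. Of all genes tested, 7.07% were separated upward and 3.89% downward. *Ppargc1a*, the coactivator of mitochondrial biogenesis that the study follows, was at 86.4, 133 and 163 CPM in Atf3 high, against 276, 275 and 422 CPM in Atf3 low (log2 fold change −1.33, standard error 0.48, edgeR adjusted p = 0.649).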

How the data were processed

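Cardiac areas of Ndufs6 knockdown mice were profiled by photo-isolation chemistry, followed by CEL-seq2 (3 Atf3 high, 3 Atf3 low, grouped by their labels). The authors deposited counts of UMIs per gene and library, without normalization. They mapped reads to GRCm38 with HISAT2 (version 2.1.0); the submitters' processing notes also name UMI-tools (1.0.0) and featureCounts (1.6.4). How reads on several genes or on either strand were assigned is not given in the sources used here, which bears on genes with near-identical copies and on those that overlap another gene.

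Genes with at least 10 UMIs over the 6 libraries were scaled by TMM and compared with the quasi-likelihood test of edgeR (version 4.0.16, R 4.3.3), with no covariate and with Benjamini-Hochberg adjustment over all of them. Standard errors were taken from the log2 fold change and its F statistic, and 95% intervals from the t distribution. Levels are CPM on TMM-scaled totals, and depth was 81117 to 210588 UMIs per library. Counts of libraries within a group differed by more than sampling noise (chi-square over its degrees of freedom 3.55 to 5.07), so each was used as 1 replicate. Binomial intervals are exact (scipy version 1.17.1) and, like floors, cover counting error only. Members, function classes and the wider list were chosen with earlier results of these data known. Every member was named. Values were given library by library for the 2 with most UMIs and the 2 of smallest p in each class, and for those whose groups did not overlap. Of the wider list, the 5 of smallest p and those whose groups did not overlap were named. *Zbed5*, *Gm10273*, *Gm9797*, the copies of *Bnip3l* and *Tomm20*, *Arfip2* and the partner pairs were chosen after their values had been seen. Copies were sought with BLAST+ (version 2.17.0, at least 95% identity over 200 bases of GENCODE transcripts), and promoter sequences came from RefSeq on GRCm38.p6. DESeq2 (version 1.42.0), limma-trend (limma version 3.58.1), other scalings and filters, a replicate block, summed copies and the omission of each library in turn served as alternatives.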

Additional observations from a re-analysis of the deposited data

How the results depend on the processing

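In all 14 alternatives, 0 of the genes tested passed an adjusted p of 0.05, including DESeq2, and the median log2 fold change stayed between −0.32 and 0.14. At an unadjusted p under 0.05, 1 of the 36 genes (*Chchd2*) was higher with library size alone, where 5.35% of all genes tested were. With each library left out, 0 to 1 were higher, the 1 without Atf3 low replicate 3 (2.87% of all genes). With limma-trend on log2(CPM + 4), 2 genes were lower (*Mfn1* and *Pink1*; 2.05% of all genes), and 0 to 3 with each library left out, the most without Atf3 high replicate 3 (3.37% of all genes). A replicate block also gave 2 lower genes (the same *Mfn1* and *Pink1*, beside 2.06% of all genes) and a median of −0.22. It called 24 genes in the whole table against 7, none of them a member. The correlations of same-numbered libraries were 0.0851, 0.000876 and 0.0656. The libraries numbered 2 also differed in *Xist* (0 UMIs in Atf3 high, 13 in Atf3 low) and in Y-linked genes (16 against 0). The numbers were not taken to pair the areas, although 2 of the 3 Atf3 high libraries correlated best with their own number. DESeq2 called 12 genes and filterByExpr, which tested 16 of the genes here, 6. Log2 fold changes close to 0 turned sign. *Mfn2* was −0.026 with median-of-ratios size factors, −0.029 with DESeq2, −0.21 with limma-trend, −0.17 with the block and −0.65 to 0.31 with each library left out. *Bnip3l* was −1.45 with limma-trend, −1.10 with the block and −5.32 to 0.90 with each library left out, where the lowest value compares with 2 libraries at 0 UMIs and depends on the prior count. *Dnm1l* was −0.30 with limma-trend, −0.11 with the block and −0.26 to 0.45 with each library left out. *Timm10* was 0.061 with library size alone and −0.31 to 0.13 with each library left out. *Tomm7* was 0.15 with library size alone, 0.0064 with limma-trend and −0.29 to 0.32 with each library left out. *Fis1* (−0.29 to 0.63), *Mff* (−0.50 to 0.076) and *Timm17a* (−0.19 to 0.30) turned sign only with a library left out. The causes were not tested. Separated genes numbered 5 upward and 4 downward without Atf3 high replicate 2 (13.5% and 5.61% of all genes), an alternative chosen after seeing the data. Depth limits the genes with few UMIs per library, whose intervals hold changes in either direction.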
